A study of Mus musculus with 6 samples.

Results

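Spp1 and 8 other genes for matricellular proteins and fibronectin were followed in immortalized mouse embryonic fibroblasts (MEFs): Sparc, Sparcl1, Thbs1, Thbs2, Thbs3, Tnc, Postn and Fn1. They are 9 of the 26231 genes in the deposited table and were found by symbol. The set was selected on measured values, since Spp1 was known to be among the largest falls between the lines, so the differences between the lines are given as a description of these genes, and calls of the fit across all genes are only counted beside the share of all genes called. The MEFs came from FVB embryos with loxP-flanked Nf2 alleles, the gene for the tumor suppressor Merlin, at approximately 14 days per the labels. They were immortalized with SV40 large T antigen and transduced with a CMV-GFP control lentivirus (MEF Nf2fl/fl, labelled WT) or with a CMV-Cre GFP lentivirus, named for the promoter that drives Cre (MEF Nf2-/-, labelled Nf2 KO), and all spent 24 h in serum-free medium before RNA extraction. Each kind is 1 line with 3 libraries, and the sources do not say whether the libraries came from separate cultures, so p-values measure only the spread between these libraries.

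Matricellular proteins are secreted into the extracellular matrix but serve less as scaffold than as signals: they bind integrins and other receptors, collagens, growth factors and proteases, and so set how firmly a cell adheres and which factors reach it. They are low in most resting adult tissues and abundant in development, wound repair and tumor stroma, where fibroblasts are a main source. Fibronectin is a structural matrix glycoprotein that many of them bind, and its assembly into fibrils by integrins comes early in the building of a matrix.

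Several of these proteins share an Arg-Gly-Asp (RGD) tripeptide, a sequence that several integrins recognize. The tripeptide was not used to choose the genes, and it is shown because it separates members that can carry this integrin motif from those that do not. In the longest complete coding sequence of each gene in GENCODE vM21 (GRCm38), the codons for RGD were found in 4 of the 9 genes (Spp1, Thbs1, Thbs2 and Fn1), against 1562 of 21538 genes with a coding sequence (7.25%). Each line below gives 27 bases in coding orientation, with the RGD codons in capitals.
Spp1, codons 145 to 147, chr5:104439472-104439498, plus strand, exon 7: cccaacggcCGAGGTGATagcttggct
Thbs1, codons 927 to 929, chr2:118122680-118122899, plus strand, across an exon junction: ggtgatggcCGAGGTGACgcctgcaaa
Thbs2, codons 928 to 930, chr17:14671475-14673144, minus strand, across an exon junction: ggtgacggcCGAGGTGACatttgtaaa
Fn1, codons 1614 to 1616, chr1:71606737-71606763, minus strand, exon 30: gtcactggcCGTGGGGACagtccagca
Fn1, codons 2181 to 2183, chr1:71597434-71597460, minus strand, exon 40: catgttcccAGGGGAGACgtagactac
In osteopontin, the product of Spp1, the tripeptide is the main integrin site and thrombin cleaves the protein close behind it. The exon 30 stretch of Fn1 is the cell-binding site of fibronectin. No RGD codons were found in Sparc (332 codons), Sparcl1 (650), Thbs3 (956), Tnc (2110) or Postn (838).

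Levels are given in RPKM, a read count divided by the exon length of the gene and by the depth of the library, so they may be compared between genes. The unit was inferred from the values: after multiplication by exon length, in each library 85.9% to 87.4% of values no larger than 20 reads came within 0.1 of a whole read, where chance gives 20%. The inferred depth was 13462402 to 19288129 reads in replicates 1 and 2 of the lines and 61238731 and 73093044 in replicate 3. At 1 RPKM or more in at least 3 libraries, 11067 genes were tested with limma on log2(RPKM + 1), and 8 of the 9 members were among them. Sparcl1 was not. The label was not reflected in Nf2 RNA (14.3, 13.7 and 13.1 RPKM in the controls, 15.4, 12.9 and 13.9 RPKM in MEF Nf2-/-), so every direction between the lines rests on the labels. A single value for the whole gene cannot show whether the loxP-flanked part was lost. Same-numbered libraries of the lines deviated together, so each difference is given within replicate numbers as well. Exons of Thbs1, Thbs3, Tnc and Fn1 partly overlap genes annotated on the other strand, and as the strand setting of the counting is not given, reads there could belong to either gene. In bulk RNA, fewer cells that express a gene and less RNA per cell cannot be told apart.

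Across the set, Spp1, Thbs2 and Fn1 were lower and Thbs1 was higher in every library labelled MEF Nf2-/- than in any MEF Nf2fl/fl library. Sparc, Thbs3, Tnc and Postn overlapped between the lines. Genes whose libraries did not overlap made up 15.1% of all genes tested, 7.60% higher and 7.52% lower in MEF Nf2-/-. At an adjusted p of 0.05 without the replicate number as a block, Spp1 and Fn1 passed, both lower, against 1.06% of all genes tested (0.479% higher and 0.578% lower). With the block, 5 of the 8 passed: Spp1, Thbs2, Tnc and Fn1 lower and Thbs1 higher, against 7.53% of all genes (2.99% higher and 4.54% lower). Without the block, Fn1 no longer passed when any single library was left out, nor did Spp1 when any but MEF Nf2fl/fl replicate 2 was. Because this contrast chose the set, nothing is read from these counts.

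**Figure D1:**
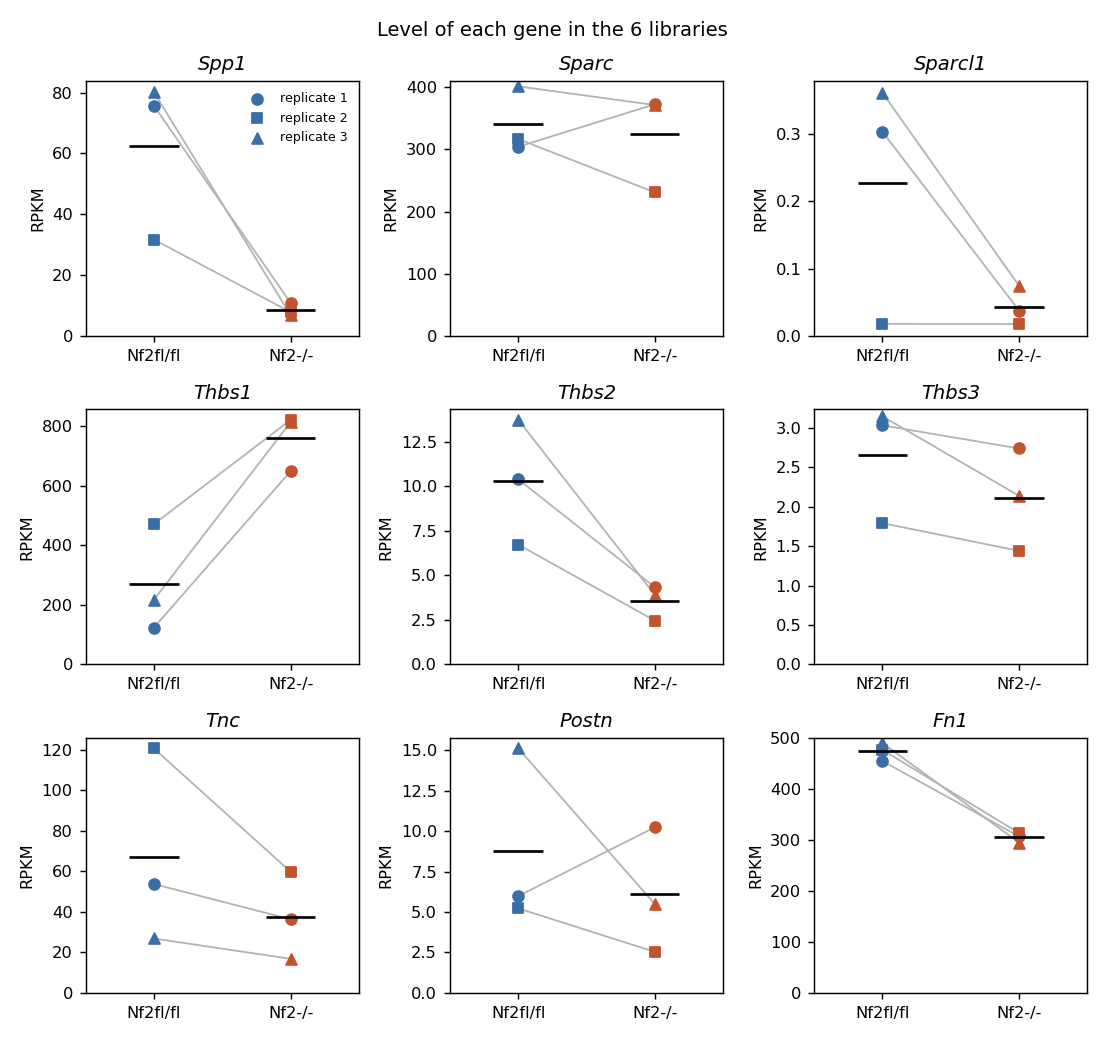
Level of the 9 genes (RPKM, linear axes from 0) in the 3 MEF Nf2fl/fl and 3 MEF Nf2-/- libraries; marker shapes are replicate numbers, grey lines join libraries of the same number, and black bars are line means. Spp1, Thbs2 and Fn1 lie lower and Thbs1 lies higher in all 3 MEF Nf2-/- libraries, while Sparc, Thbs3, Tnc and Postn overlap.

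Spp1 encodes osteopontin, a phosphorylated sialoprotein of bone matrix and of remodelling tissue that binds RGD integrins and CD44. The gene lies on chromosome 5 of GRCm38, plus strand, from 104435118 to 104441050. MEF Nf2fl/fl replicates 1, 2 and 3 held 75.7, 31.7 and 80.1 RPKM, and the same replicates of MEF Nf2-/- held 10.9, 7.83 and 6.82 RPKM. Replicate 2 was the lowest of the control libraries and was still well above every MEF Nf2-/- library. The means were 62.5 ± 26.8 and 8.51 ± 2.11 RPKM (SD, n = 3 each), and the control mean was 7.35 times the other. Within replicate numbers the control level was 6.96, 4.05 and 11.7 times that of the partner library, so the size of the difference varied while its direction did not. On the log2(RPKM + 1) scale the difference was -2.65 (standard error 0.36, and 0.27 with the replicate block). Counting error is small here, since the lowest library still held about 249 reads. Among all genes tested, the mean level of Spp1 moved from percentile 94.1 in MEF Nf2fl/fl to percentile 53.7 in MEF Nf2-/-. With 1 library left out, the log2 difference was -2.46, -3.07 and -2.42 without MEF Nf2fl/fl replicate 1, 2 or 3, and -2.82, -2.61 and -2.52 without MEF Nf2-/- replicate 1, 2 or 3. Exons of Spp1 overlap those of Gm42793 on the same strand, and 14.3% of its 31-base stretches occur there, so some of its reads could be assigned to either gene.

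Fn1 encodes fibronectin. The gene lies on chromosome 1, minus strand, from 71585520 to 71653200. It was listed at 455, 477 and 491 RPKM in the 3 MEF Nf2fl/fl libraries and at 307, 314 and 295 RPKM in the 3 MEF Nf2-/- libraries. These are the tightest groups of the set: libraries of the same line differed little, and a wide gap separated the lines. The means were 475 ± 17.9 and 305 ± 9.43 RPKM (SD, n = 3 each), and the control level was 1.48, 1.52 and 1.66 times its partner's in replicates 1, 2 and 3. The log2 difference was -0.63 (standard error 0.091, and 0.086 with the block). It is the smallest difference of the members whose lines did not overlap. With 1 library left out, it was -0.66, -0.63 and -0.61 without MEF Nf2fl/fl replicate 1, 2 or 3. It was -0.64, -0.65 and -0.61 without MEF Nf2-/- replicate 1, 2 or 3. Its direction held in all 16 alternatives, but leaving out libraries could not turn it, as the lines did not overlap.

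Thrombospondins are multidomain glycoproteins whose members between them bind CD47, CD36, integrins and heparan sulfate, though not each binds all of these. Thrombospondin 1 activates latent TGF-beta, and thrombospondins 1 and 2 inhibit angiogenesis. Thbs1 lies on chromosome 2, plus strand, from 118111876 to 118127133. Its level was 124, 471 and 217 RPKM in MEF Nf2fl/fl, against 649, 821 and 813 RPKM in MEF Nf2-/-. MEF Nf2fl/fl replicate 2 stood out among the controls and came nearest to the other line. The means were 271 ± 180 and 761 ± 97.3 RPKM (SD, n = 3 each), 2.81 times higher in MEF Nf2-/-, and the ratio was 5.25, 1.74 and 3.74 within replicates 1, 2 and 3. On the log2 scale the difference was 1.69 (standard error 0.45, and 0.30 with the block), and Thbs1 was the only tested member that was higher in MEF Nf2-/- in all 3 replicate numbers.

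Thbs2 lies on chromosome 17, minus strand, from 14665500 to 14694235. It went the other way: 10.4, 6.73 and 13.7 RPKM in MEF Nf2fl/fl, against 4.33, 2.46 and 3.90 RPKM in MEF Nf2-/-. Every MEF Nf2-/- library was below every control library. The means were 10.3 ± 3.51 and 3.56 ± 0.982 RPKM (SD, n = 3 each), and the control level was 2.40, 2.74 and 3.52 times the partner's. The log2 difference was -1.28 (standard error 0.27, and 0.11 with the block). Thbs3 lies on chromosome 3, plus strand, from 89215180 to 89226837. It was low and overlapped between the lines, with 3.03, 1.79 and 3.15 RPKM in MEF Nf2fl/fl, against 2.74, 1.44 and 2.14 RPKM in MEF Nf2-/- (log2 difference -0.24, standard error 0.22). Its partner differences were -0.11, -0.19 and -0.40, all of the same sign. With 1 library left out, its mean difference lay between -0.42 (without MEF Nf2fl/fl replicate 2) and -0.072 (without MEF Nf2-/- replicate 2). The 3 thrombospondin genes thus did not move together between the lines. Thbs1 was the most abundant of them throughout, and its level was 11.9, 70.0 and 15.8 times that of Thbs2 in MEF Nf2fl/fl replicates 1, 2 and 3, against 149.7, 334 and 208.5 times in MEF Nf2-/-.

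Tenascin C is a large hexabrachion glycoprotein that loosens adhesion to fibronectin, and periostin is a fasciclin-domain protein that binds collagen, fibronectin and tenascin C and aids collagen cross-linking. Tnc lies on chromosome 4, minus strand, from 63959785 to 64047015. Its level was 53.8, 121 and 26.9 RPKM in MEF Nf2fl/fl, against 36.3, 59.8 and 16.8 RPKM in MEF Nf2-/-. The range inside each line was wider than the difference between the line means, and the libraries overlapped, but in each replicate number the MEF Nf2-/- library was the lower. The control level was 1.48, 2.02 and 1.60 times the partner's. The mean log2 difference of -0.73 therefore had a standard error of 0.63 without the block and 0.10 with it. Single libraries moved it: it was -0.19 without MEF Nf2fl/fl replicate 2, -0.26 without MEF Nf2-/- replicate 3, -1.25 without MEF Nf2fl/fl replicate 3 and -1.15 without MEF Nf2-/- replicate 2. Postn lies on chromosome 3, plus strand, from 54361109 to 54391037. It was listed at 5.98, 5.23 and 15.1 RPKM in MEF Nf2fl/fl, against 10.2, 2.54 and 5.49 RPKM in MEF Nf2-/-. The partner differences were 0.69, -0.82 and -1.31 on the log2 scale, so the sign turned between replicate numbers (mean -0.48, standard error 0.51). The mean difference was -0.051 without MEF Nf2fl/fl replicate 3 and -0.058 without MEF Nf2-/- replicate 2, and it was -0.74 without MEF Nf2fl/fl replicate 2 and -0.89 without MEF Nf2-/- replicate 1.

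SPARC (osteonectin) binds collagen and calcium and has a counter-adhesive effect, and SPARCL1 is its relative. Sparc lies on chromosome 11, minus strand, from 55394500 to 55423183, and was among the most abundant members, with 304, 317 and 401 RPKM in MEF Nf2fl/fl, against 372, 231 and 371 RPKM in MEF Nf2-/-. The lines overlapped, and the partner differences were 0.29, -0.45 and -0.11 (mean -0.09, standard error 0.22). Leaving out MEF Nf2fl/fl replicate 3 or MEF Nf2-/- replicate 2 turned the sign (0.032 and 0.14). Sparcl1 lies on chromosome 5, minus strand, from 104079111 to 104113733. It was close to absent, at 0.303, 0.0180 and 0.361 RPKM in MEF Nf2fl/fl, against 0.0376, 0.0177 and 0.0745 RPKM in MEF Nf2-/-. Those levels correspond to about 12, 1 and 65 reads and to 2, 1 and 16 reads, too few in the shallower libraries for a ratio to be read. Sparc thus ranked 2 or 3 of the 9 genes in each library, and Sparcl1 ranked last.

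**Figure D2:**
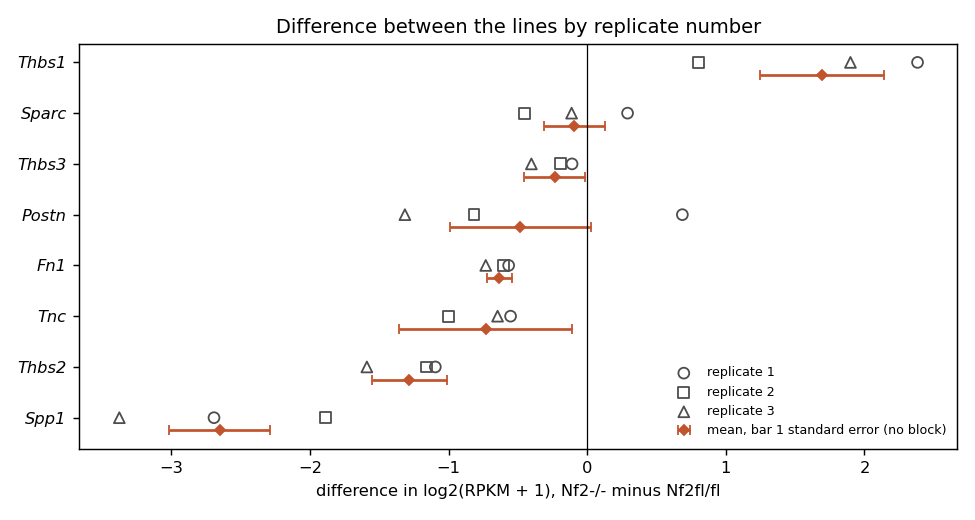
Difference in log2(RPKM + 1), MEF Nf2-/- minus MEF Nf2fl/fl, for the 8 tested members; open symbols are the 3 replicate numbers and the filled diamond is their mean with 1 standard error of the fit without the block. Spp1 is farthest to the left (-2.65) and Thbs1 farthest to the right (1.69), and the symbols of Sparc and Postn fall on both sides of 0.

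Within replicate numbers, 6 of the 8 tested members had the same sign in all 3 pairs: Spp1, Thbs2, Thbs3, Tnc and Fn1 were lower, and Thbs1 was higher. Of all genes tested, 46.9% had the same sign in all 3 pairs. The set was chosen with these pairs known, so nothing is read from the member count.

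The order of levels differed between the lines. In MEF Nf2fl/fl, Fn1 was the highest in all 3 libraries, followed by Sparc and Thbs1, then Tnc and Spp1, then Thbs2 and Postn, then Thbs3, and Sparcl1 last. The libraries of Sparc and Thbs1 overlapped, as did those of Tnc and Spp1 and those of Thbs2 and Postn, so the order inside each of these pairs is not resolved. In MEF Nf2-/-, Thbs1 was the highest in all 3 libraries. It was followed by Sparc and Fn1, which overlapped, then by Tnc. Spp1, Postn, Thbs2 and Thbs3 came next, each overlapping its neighbour in the order when libraries are pooled, although they stood in this order in each of the 3 libraries, and Sparcl1 was again last. In MEF Nf2fl/fl replicate 2 the lead of Fn1 over Thbs1 was small (477 and 471 RPKM).

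The summed level of the 9 genes was 1032, 1431 and 1249 RPKM in MEF Nf2fl/fl, against 1393, 1440 and 1515 RPKM in MEF Nf2-/-. The lines overlapped, and the MEF Nf2-/- sum was the higher in each of the 3 pairs, by little in replicate 2. What the sum was made of differed. Thbs1 contributed 12.0%, 32.9% and 17.4% of it in MEF Nf2fl/fl and 46.6%, 57.0% and 53.7% in MEF Nf2-/-. The part of Fn1 was 44.1%, 33.4% and 39.3%, against 22.1%, 21.8% and 19.5%. Spp1 made up 7.33%, 2.22% and 6.42% in the controls and 0.780%, 0.544% and 0.450% in MEF Nf2-/-.

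**Figure D3:**
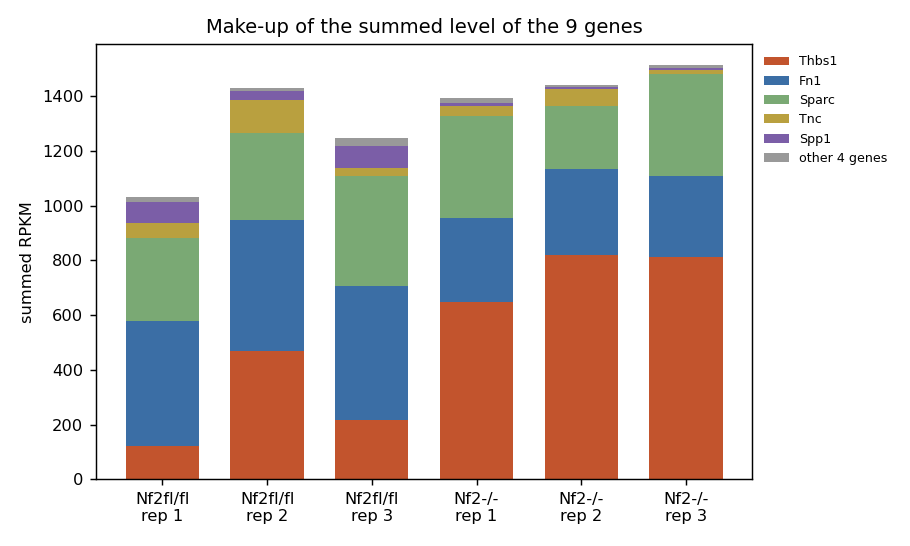
Summed RPKM of the 9 genes in each library, stacked by gene (linear axis from 0). The totals of the lines overlap (1032 to 1431 and 1393 to 1515 RPKM), with the MEF Nf2-/- total the higher in each replicate number, while the Thbs1 part at the bottom is larger in the 3 MEF Nf2-/- libraries and the Spp1 part is larger in the 3 MEF Nf2fl/fl libraries.

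The replicate numbers, which the labels give to both lines alike with the marks A, B and 2018, offer a contrast that played no part in choosing the genes. A limma F test over the 3 numbers with the line as a block called 3 of the 8 tested members, against 21.2% of all genes tested. Tnc passed (adjusted p = 0.00464), with log2 differences from replicate 1 of 0.93 in replicate 2 and -1.02 in replicate 3 (standard error 0.13). Both lines showed this: replicate 2 was the highest and replicate 3 the lowest library of each line. Thbs3 (adjusted p = 0.0318) and Thbs2 (adjusted p = 0.0335) were lower in replicate 2 than in replicate 1, by log2 differences of -0.57 (standard error 0.11) and -0.59 (standard error 0.14), and replicate 2 was the lowest library of each line for both genes. The other members did not pass, with adjusted p of 0.140 for Thbs1, 0.176 for Sparc, 0.202 for Postn, 0.210 for Spp1 and 0.921 for Fn1. Spp1 was lowest in replicate 2 of MEF Nf2fl/fl and in replicate 3 of MEF Nf2-/-.

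The Tnc call held when any single library was left out (adjusted p from limma of 0.00898 to 0.0287). Thbs2 lost its call without MEF Nf2fl/fl replicate 2 (adjusted p = 0.207), MEF Nf2-/- replicate 1 (0.0545) or MEF Nf2-/- replicate 2 (0.139), and so did Thbs3 (0.185, 0.0658 and 0.157). Some genes of contractile smooth muscle differed by replicate number in the same test. Acta2, smooth muscle actin, was at 302, 1625 and 501 RPKM in MEF Nf2fl/fl, against 625, 2066 and 851 RPKM in MEF Nf2-/-, highest in replicate 2 of each line (adjusted p = 0.00762). Tagln, the actin-binding protein transgelin, was at 152, 821 and 225 RPKM and at 157, 733 and 289 RPKM (adjusted p = 0.00464). Of the 7 smooth muscle and pericyte markers listed, 4 were tested and 3 passed this test, against 21.2% of all genes tested. The summed level of the 7 ranged from 467 to 2467 RPKM in MEF Nf2fl/fl and from 790 to 2810 RPKM in MEF Nf2-/-. Nearly all of it was Acta2 and Tagln. Myh11 and Des did not exceed 0.0347 and 0.444 RPKM in any library and were not tested. Between the lines 1 of the 4 passed without the block, against 1.06% of all genes: Cspg4, the pericyte proteoglycan NG2, was at 11.8, 15.8 and 12.4 RPKM in MEF Nf2fl/fl, against 5.67, 6.68 and 4.98 RPKM in MEF Nf2-/-, without overlap (log2 difference -1.08, adjusted p = 0.0329). It did not pass without MEF Nf2fl/fl replicate 1 or 3 (-1.15 and -1.12) or without MEF Nf2-/- replicate 1 or 3 (-1.07 and -0.99). Rgs5 of the same list went the other way without overlap. It was at 0.0490, 0.0812 and 0.111 RPKM in MEF Nf2fl/fl, against 0.499, 0.274 and 0.223 RPKM in MEF Nf2-/-, too low to be tested. With the block Cspg4 was again lower (adjusted p = 0.00307) and Acta2 was higher (log2 difference 0.72, adjusted p = 0.906 without and 0.0487 with the block), against 7.53% of all genes in either direction. The part of these markers in the levels of the members was not tested.

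**Figure D4:**
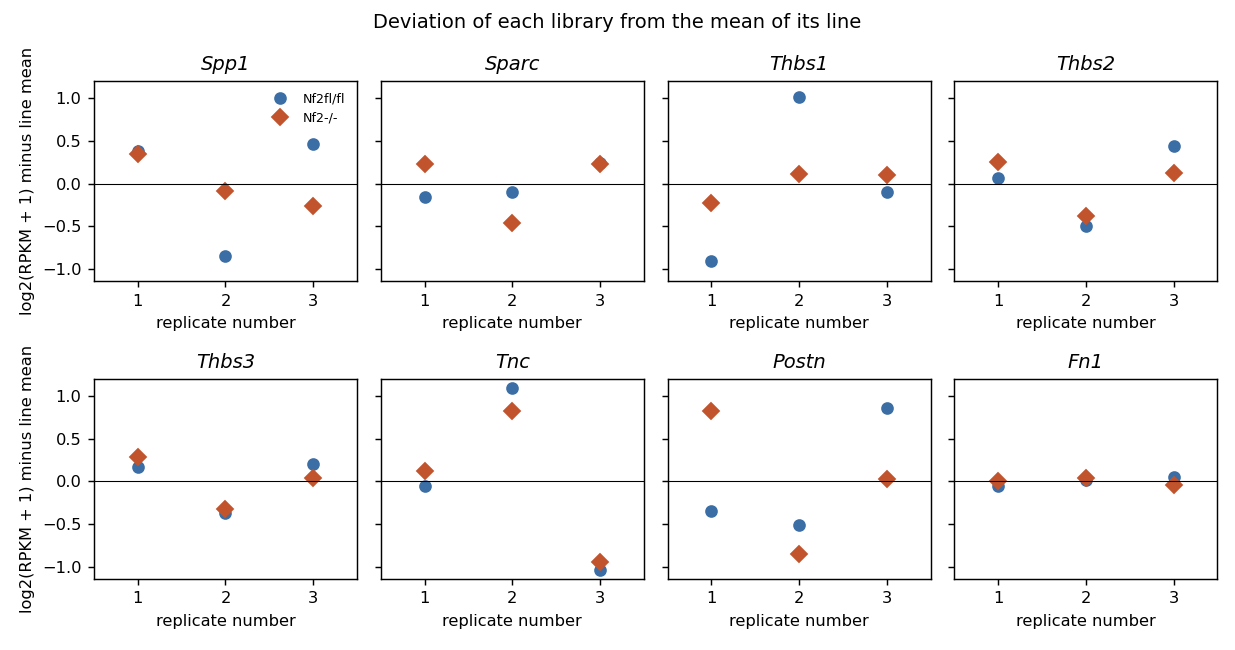
Deviation of each library from its line mean in log2(RPKM + 1), by replicate number, for the 8 tested members; circles are MEF Nf2fl/fl and diamonds MEF Nf2-/-. For Tnc both lines are high in replicate 2 and low in replicate 3, for Thbs2 and Thbs3 both are lowest in replicate 2, and Fn1 stays near 0 throughout.

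Over the 6 libraries, the members' log2 levels tracked each other unevenly. Pearson's r with Spp1 was 0.96 for Thbs2 and 0.94 for Fn1 and -0.94 for Thbs1, and Sparc and Postn had an r of 0.88 with each other. Tnc had an r of 0.23 with Spp1 and 0.0036 with Thbs2. All points share libraries in which the lines and the replicate numbers differ, so these values are descriptions with no test. Of 7024 genes whose mean reached 5 RPKM, those most like Spp1 over the 6 libraries were Clba1 (r = 0.997), Pdgfra (0.995), Inf2 (0.995), Ctsb (0.993) and Eps8 (0.989). Pdgfra, a receptor for platelet-derived growth factor on fibroblasts, was at 12.3, 5.22 and 11.7 RPKM in MEF Nf2fl/fl, against 1.42, 0.657 and 0.962 RPKM in MEF Nf2-/-. Its low control value in replicate 2, shared with Spp1, follows from the choice by likeness and is not a further result. Pdgfra reached the mean of 5 RPKM only through the control line (line means 9.75 and 1.01 RPKM). Ctsb, the lysosomal protease cathepsin B, was at 68.2, 49.3 and 65.9 RPKM and at 38.9, 34.2 and 35.5 RPKM. That difference was narrower, and its like shape again follows from the choice.

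The other genes of this system were taken from lists by role. The lists were written with earlier results of these data known, so nothing is read from their counts between the lines. Of 33 symbols for other matricellular genes, 25 were in the table and 11 were tested. None passed between the lines with limma without the block (3 at an unadjusted p of 0.05), and with the block 1 was lower, Smoc2 (adjusted p = 0.404 without and 0.0240 with the block), a share near the 7.53% of all genes. Smoc2, a SPARC-related calcium-binding protein, was at 5.41, 25.9 and 12.7 RPKM in MEF Nf2fl/fl, against 2.78, 6.73 and 2.74 RPKM in MEF Nf2-/-. The median log2 difference of the 11 was 0.21, against -0.0078 for all genes tested. Between replicate numbers 3 of the 11 passed, near the 21.2% of all genes tested: Smoc2 and the CCN family genes Cyr61 and Ctgf. Ctgf, connective tissue growth factor, was at 44.5, 739 and 71.9 RPKM in MEF Nf2fl/fl, against 79.1, 673 and 141 RPKM in MEF Nf2-/- (adjusted p = 0.00610 in the F test from limma). Like Tnc it was highest in replicate 2 of each line.

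Of 21 cell surface receptors for these proteins, 15 were tested, and none passed between the lines with limma without the block (5 at an unadjusted p of 0.05). With it, 3 were lower and none higher, against 7.53% of all genes in either direction: Itga6, the laminin-binding integrin alpha 6 (log2 difference -0.65, adjusted p = 0.599 without and 0.0141 with the block), Itgb3, the partner of alpha v in a classical osteopontin receptor (-0.49, 0.168 and 0.0391), and Cd44, the hyaluronan receptor that also binds osteopontin (-0.76, 0.785 and 0.0105). Cd44 was at 44.8, 106 and 47.1 RPKM in MEF Nf2fl/fl, against 25.5, 70.9 and 24.4 RPKM in MEF Nf2-/-, lower in each pair but overlapping between the lines. Itgb3 was at 2.10, 2.78 and 2.64 RPKM and at 1.48, 1.36 and 1.64 RPKM, with no overlap. The median of the 15 was -0.26, and 7 of them differed between replicate numbers, against 21.2% of all genes tested.

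Among proteases, kinases and cross-linking enzymes that act on these proteins, 19 of 25 in the table were tested, and 2 passed without the block, Tgm2 and Mmp3, against 1.06% of all genes tested. Tgm2, the transglutaminase that cross-links fibronectin and osteopontin, rose from 3.37 ± 0.689 to 17.9 ± 7.53 RPKM (SD, n = 3 each), by 2.03 on the log2 scale (standard error 0.32, adjusted p = 0.0478 from limma). Mmp3, the protease stromelysin 1, was at 1.36, 1.20 and 1.94 RPKM in MEF Nf2fl/fl, against 0, 0 and 0.0684 RPKM in MEF Nf2-/-. It met the filter of 1 RPKM in 3 libraries only through the control line, where it was high, so it had to differ in that direction and its call is not read as a result. With the block 2 were higher and 8 lower (Mmp3 among the latter), against 7.53% of all genes in either direction. The others named by size were Adamts1, which cleaves thrombospondin 1 and versican (1.08, adjusted p = 0.340 without and 0.0139 with the block), and Htra1, a serine protease that cuts fibronectin (-0.76, 0.422 and 0.0176). The median of the 19, Mmp3 included, was -0.46, and 7 differed between replicate numbers, where the share of all genes was 21.2%.

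Of 24 matrix proteins and growth factors that bind the members, 20 were tested, and 3 passed without the block, Tgfb2, Tgfb1 and Dcn. Tgfb2 was at 2.85, 3.14 and 3.14 RPKM in MEF Nf2fl/fl, against 9.71, 7.09 and 11.9 RPKM in MEF Nf2-/- (log2 difference 1.36, adjusted p = 0.0301), and Tgfb1 at 5.36, 5.10 and 6.40 RPKM and at 2.09, 1.61 and 2.53 RPKM (-1.11, adjusted p = 0.0302). These transforming growth factors beta are secreted in a latent form, and thrombospondin 1 is an activator of TGF-beta 1. The lines did not overlap for either gene, and the directions were opposite. Dcn, the collagen-binding proteoglycan decorin, was at 2.57, 1.60 and 4.01 RPKM and at 0.133, 0.0266 and 0.112 RPKM. Like Mmp3 it met the filter only through the control line, so its call is not read as a result. With the block 3 were higher and 4 lower (Dcn included), against 2.99% and 4.54% of all genes. Among the lower ones was Col3a1, a fibrillar collagen chain (-1.01, adjusted p = 0.890 without and 0.0274 with the block). The median of the 20, Dcn included, was -0.27, and 5 differed between replicate numbers, a share close to the 21.2% of all genes. Over the 4 role lists, 5 of 65 tested genes passed without the block, Mmp3 and Dcn included, against 1.06% of all genes tested. As these lists were written with earlier results known, this share is not read as a result. No gene of the 65 passed without MEF Nf2fl/fl replicate 1 or 3 or without MEF Nf2-/- replicate 1 or 3 (24, 22, 21 and 18 of them at an unadjusted p of 0.05 with limma), so these calls rest on each of those libraries.

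Other cell types were checked because osteopontin is made by macrophages and bone cells too. Of 12 macrophage markers, 11 were under 1 RPKM in all 6 libraries. Their summed level was 7.15 to 9.15 RPKM in MEF Nf2fl/fl, against 6.03 to 7.57 RPKM in MEF Nf2-/-, and Cd68, a lysosomal protein, made up the largest part of it (5.08 to 8.10 RPKM over the libraries). Lyz2, the next highest, did not exceed 0.707 RPKM, and the defining markers Ptprc and Adgre1 did not exceed 0.00896 and 0.0202 RPKM. Csf1r and Itgam, which did not exceed 0.162 and 0.0525 RPKM, were lower in every MEF Nf2-/- library than in any control library. The other macrophage markers overlapped between the lines. Of 11 osteoblast and chondrocyte markers 3 were tested and none passed with limma (0 at an unadjusted p of 0.05), with a sum of 11.6 to 17.7 RPKM in MEF Nf2fl/fl, against 10.0 to 22.9 RPKM in MEF Nf2-/-. Sox9 (5.79 to 18.9 RPKM) and Runx2 (2.37 to 2.87 RPKM) were the highest over the 6 libraries by their mean, and Ibsp was listed at 0 in 5 of them. Phex, too low to be tested, was at 0.496, 0.352 and 0.462 RPKM in MEF Nf2fl/fl, against 0.123, 0.132 and 0.122 RPKM in MEF Nf2-/-. It was lower without overlap, while the other markers of this list overlapped. Endothelial markers summed to 1.48 to 3.90 and 1.55 to 4.47 RPKM, led by Kdr with Tek next, and epithelial markers to 0.328 to 0.974 and 0.369 to 1.43 RPKM, led by Krt18 and Cldn4.

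The 12 fibroblast markers summed to 1422 to 2116 RPKM in MEF Nf2fl/fl, against 1172 to 1636 RPKM in MEF Nf2-/-, led by Vim and Col1a1. Some were near absent: Lum did not exceed 0.247 RPKM and Fap did not exceed 0.0290 RPKM in any library. Without the block 2 of the 10 tested passed, Pdgfra and Dcn, against 1.06% of all genes, but both met the filter through the control line, since Dcn reached 1 RPKM in no MEF Nf2-/- library and Pdgfra in 1, so these calls are not read as results. The median log2 difference of the 10, Pdgfra and Dcn included, was -0.60, against -0.0078 for all genes tested, and is not read as a result either. With the block 1 was higher and 4 were lower, Pdgfra and Dcn among them, against 7.53% of all genes in either direction. The other lower ones were Col3a1, given above, and Thy1, a surface glycoprotein, at 4.19, 7.04 and 6.52 RPKM in MEF Nf2fl/fl, against 1.85, 3.64 and 2.31 RPKM in MEF Nf2-/-, without overlap (log2 difference -0.95, adjusted p = 0.178 without and 0.00716 with the block). The higher one was Twist1, a mesenchymal transcription factor, at 31.6, 27.9 and 29.4 RPKM in MEF Nf2fl/fl, against 47.8, 34.5 and 43.7 RPKM in MEF Nf2-/- (adjusted p = 0.247 without and 0.0289 with the block). The part of these markers in the level of Spp1 was not tested.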

How the data were processed

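RNA was sequenced from 3 MEF Nf2fl/fl and 3 MEF Nf2-/- libraries. The authors deposited 1 normalized value per gene and library, treated here as RPKM. Libraries, sequencing and analysis were by GENEWIZ; the processing notes name the build mm10, and the aligner, counting tool, strand setting and unit are not given in the sources used here. Samples were grouped by title. Values were set to log2(RPKM + 1), genes with 1 RPKM or more in at least 3 libraries were kept, and limma 3.58.1 (R 4.3.3; lmFit, eBayes with trend and robust) was run as a two-sided test. P-values were adjusted by Benjamini and Hochberg's method over the 11067 genes kept, with a threshold of 0.05. The pseudocount of 1 understates changes of low genes. The fit had no covariate; the replicate block was an alternative. The labels give both lines the same replicate numbers. Across genes, the departures of libraries 1, 2 and 3 from the mean of their line correlated between the lines at 0.552, 0.819 and 0.516. The numbers were therefore treated as pairs. The departures cancel within each line, so the correlations are not independent of each other, and other pairings were not compared.

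Depth was inferred from the step of 1 read, so counting errors are approximate and library spread sets the precision. The members and lists were chosen with earlier results of these data known. Named genes were all members and Nf2; from each role list the genes past the threshold or, if fewer than 4, up to 4 with the largest change past it with the block; the 2 highest markers of each cell type; and the 5 genes most like Spp1. Ctgf, Cyr61, Ptprc, Adgre1, Csf1r, Itgam, Lum, Fap, Cspg4, Rgs5, Myh11, Des, Thy1, Twist1, Ibsp, Phex and Gm42793 were named after their values were seen. Coordinates, codons and 31-base stretches came from GENCODE vM21 (GRCm38). The alternatives changed the pseudocount (0.1), the filter (none, or 5 RPKM), the eBayes settings (neither trend nor robust) and the scaling (quantile or median), or consisted in leaving out each library or replicate number. The fits were tested on simulated data.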

Additional observations from a re-analysis of the deposited data

How the results depend on the processing

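The line comparison called 117 genes, and 833 with the replicate block, 9 with no filter, 63 with a filter of 5 RPKM and 0 to 484 when libraries or replicate numbers were left out. Without replicate 1 or replicate 3 of both lines none passed with limma (578 and 556 at an unadjusted p of 0.05). Of the members 2 passed, and 5 with the block, 0 with no filter (4 unadjusted), 1 with quantile normalization and 0 to 4 with libraries left out. Of the list genes 5 passed, and 21 with the block, 0 with no filter (29 unadjusted), 2 with a filter of 5 RPKM and 0 to 16 with libraries left out. The difference in Spp1 kept its sign in all 16 alternatives, but as the lines did not overlap, leaving out libraries could not turn it. It was -2.65 with no filter, where no member passed, and -3.07 to -2.29 with libraries left out. Sparc, which was not called, ranged from -0.28 to 0.14 with libraries left out and turned positive in 3 of these (0.090 without replicate 2, 0.032 without MEF Nf2fl/fl replicate 3, 0.14 without MEF Nf2-/- replicate 2). Between replicate numbers 3 members passed, 0 with no filter (3 unadjusted), 1 with quantile normalization and 1 to 4 with libraries left out. With no filter 26231 genes were tested. Otherwise the cause was not tested. Depth limits what can be read from Sparcl1, at 1 to 65 reads a library. Of 238 recomputed values, 157 kept their call and direction or, for counts, stayed close.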

Other observations

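Tgfbi, a secreted matrix protein of the periostin family, was named after its values were seen. Replicates 1, 2 and 3 of MEF Nf2fl/fl held 4.02, 0.615 and 4.32 RPKM, and those of MEF Nf2-/- held 0.938, 0.0962 and 0.472 RPKM. It was lower in MEF Nf2-/- in each of the 3 pairs, the lines overlapped, and it was not tested because it reached 1 RPKM in too few libraries. Replicate 2 was the lowest library of each line, as for Thbs2, Thbs3 and Postn.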
